A study of Mus musculus with 19 samples.

Results

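Retinoic acid is the signal that starts the differentiation of spermatogonia, and 10 genes of its synthesis, breakdown and response were examined for SOX3 occupancy in P7 mouse testis. They were taken from a fixed list, out of 26180 genes with curated RefSeq transcripts: Rdh10, Aldh1a1, Aldh1a2 and Aldh1a3 (synthesis), Cyp26a1, Cyp26b1 and Cyp26c1 (breakdown), Rara and Rarb (receptors) and Stra8 (response). The rule uses no measured value, although the list was drawn up with earlier results of these data known. Each gene had 1 to 5 RefSeq start sites, 17 in all. The data were 2 replicates of SOX3 ChIP-seq and 2 of SOX3 ChIP-nexus, a ChIP variant with an exonuclease step. The other 15 of the 19 samples were not analysed here.

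By their labels all 4 libraries came from testis at postnatal day 7, and the study's methods extend that age to the following day. The labels give no genotype or treatment for these libraries. Their antibody label names a pair of SOX3 antibodies (SCBT, #sc-101155 and EMD Milipore, #AB5772) for each library. In the study's methods the chromatin came from seminiferous tubules of several pooled mice of the C57BL/6J background, freed of the tunica albuginea, so somatic cells of the tubule were present with the germ cells, and the cell type behind a peak cannot be told apart. Peak lists hold no expression values, so the tissue could not be checked against marker genes here.

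In the testis, retinol is oxidised to retinal by retinol dehydrogenases such as RDH10, and retinal to retinoic acid by the ALDH1A enzymes, while the CYP26 enzymes degrade retinoic acid. Retinoic acid binds receptors such as RARA and RARB, which pair with RXR proteins on DNA at direct repeats of a short half-site. In germ cells the response includes Stra8, which is needed for entry into meiosis. SOX3 is an HMG-box transcription factor of undifferentiated spermatogonia (uSPG).

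A direct repeat with a spacer of 5 bases (DR5) is the classic retinoic acid response element, and it occurred near the starts of 3 of the 10 genes. A half-site was taken as AGGTCA or as its common variant AGTTCA, on either strand. The forms of both that begin with G, GGGTCA for the first and GGTTCA for the variant, were counted too. The repeats found within 2 kb of the 17 start sites are shown because their position relative to the SOX3 peaks is described next. They are written in the direction of the repeat, with the half-sites in capitals and the spacer in lower case (RefSeq sequence, GRCm38.p6, the assembly of mm10).
Rara: AGTTCAgcaagAGTTCA
Rarb: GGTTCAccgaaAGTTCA
Cyp26a1, near the start: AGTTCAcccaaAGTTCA
Cyp26a1, far upstream: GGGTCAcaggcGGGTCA

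The Rara repeat lay at chr11:98960008-98960024, 463 to 447 bp upstream of the start at position 98960471, outside any annotated exon. In the Rarb gene the repeat was at chr14:16575513-16575529, 53 to 37 bp upstream of the start at 16575476. GENCODE, but not RefSeq, has exons over it. The nearer Cyp26a1 repeat was at chr19:37697776-37697792, 32 to 16 bp upstream of the start at 37697808. The other lay at chr19:37695909-37695925, 1899 to 1883 bp upstream.

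The surrounding sequence is given on the strand of the gene, with the repeat in capitals, and the stretches leave out annotated exons (30 bases are printed for Rarb, whose repeat GENCODE places in one). They run from chr11:98959908-98960084 for Rara, chr14:16575507-16575536 for Rarb, chr19:37697676-37697797 for the nearer and chr19:37695809-37695985 for the farther Cyp26a1 repeat.
Rara: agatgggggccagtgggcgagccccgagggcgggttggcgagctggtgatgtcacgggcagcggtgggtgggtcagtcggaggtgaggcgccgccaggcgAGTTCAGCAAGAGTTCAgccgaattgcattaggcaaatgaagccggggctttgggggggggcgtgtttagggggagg
Rarb: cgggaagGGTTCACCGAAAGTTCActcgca
Cyp26a1, near the start: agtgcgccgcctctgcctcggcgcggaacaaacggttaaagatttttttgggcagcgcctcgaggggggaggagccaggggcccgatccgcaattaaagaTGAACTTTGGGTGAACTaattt
Cyp26a1, far upstream: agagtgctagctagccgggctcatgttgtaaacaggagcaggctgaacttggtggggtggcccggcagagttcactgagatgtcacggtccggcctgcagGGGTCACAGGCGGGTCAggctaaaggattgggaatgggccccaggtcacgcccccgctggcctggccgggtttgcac

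The repeats of Rara and Rarb and the nearer repeat of Cyp26a1 each lay inside a SOX3 peak in both replicates, and the farther repeat of Cyp26a1 lay in no peak of either. At the Rara repeat the peaks were chr11:98957772-98968083 in replicate 1 and chr11:98959407-98961707 in replicate 2. Rarb had peaks at chr14:16575116-16576133 and chr14:16575175-16576122. At Cyp26a1 they were chr19:37697179-37698890 and chr19:37696880-37697825. A repeat of this kind lay within 500 bp of 83 of the 31647 RefSeq start sites (0.262%), against 3 of the 17 starts of these genes. Over the 81 different repeats at those 83 starts, 40.7% lay inside a peak of replicate 1, 28.4% inside one of replicate 2 and 27.2% inside one in both. Of the 83 starts, 39.8% had a peak within 2 kb in both replicates, beside 52.1% of all starts. These shares describe the lists, and with 3 genes nothing particular to the retinoic acid genes follows from them.

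Stra8 had no DR5, and no repeat with a spacer of 2 bases (DR2), within 1 kb of its start. A pair of single half-sites lay in the 250 bases before the start at chr6:34920948, in the stretches chr6:34920742-34920771 and chr6:34920898-34920927. They are shown with the half-site in capitals because a SOX3 peak of both replicates covers them.
Stra8, 194 bp upstream: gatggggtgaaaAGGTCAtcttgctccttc
Stra8, 38 bp upstream: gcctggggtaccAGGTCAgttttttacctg
Single half-sites are common: 83.9% of all start sites had one within 500 bp, and 58.0% within 250 bp. Both windows run to either side of a start and are longer than the stretch searched at Stra8.

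A promoter peak was a peak of the authors' lists that overlapped the 2 kb on either side of a start site. The q score of a peak is its FDR-adjusted p-value on the authors' negative log10 scale, scaled so that higher is stronger, the lists start at 30, and the log2 ratio compares ChIP with input. Of the 10 genes, 7 had a promoter peak in both replicates (Stra8, Rara, Rarb, Cyp26a1, Aldh1a1, Aldh1a2 and Rdh10), where 52.2% of all genes did. Each replicate alone had one at 8 of the 10, beside 62.7% of all genes in replicate 1 and 54.7% in replicate 2. In at least 1 replicate 9 of the 10 had one, beside 65.2%. With 10 genes, counts this near the share over all genes are not a result about the retinoic acid genes. No test was made, since there are 2 replicates and no condition to compare.

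**Figure D1:**
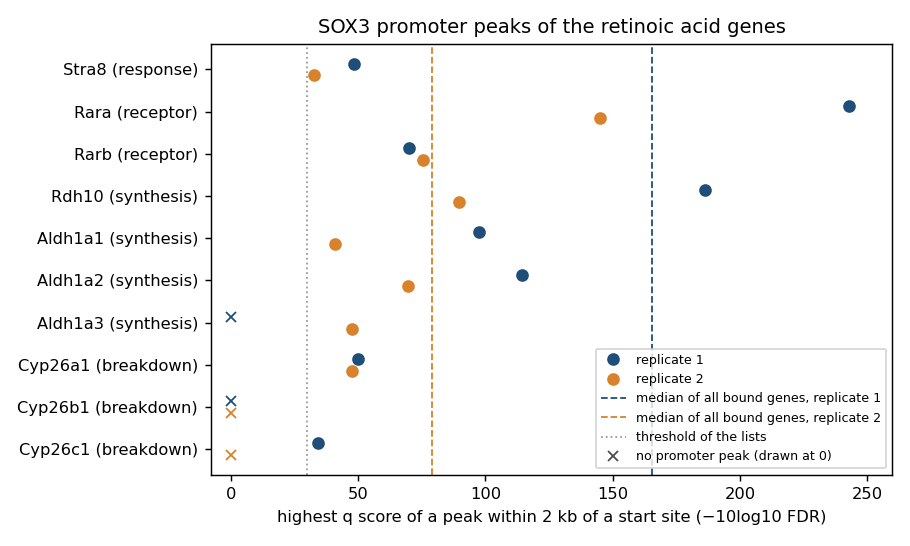
Highest q score (a scaled negative log10 of the FDR) of a promoter peak for each gene, with replicate 1 in blue and replicate 2 in orange. Dashed lines are the medians over all genes with a promoter peak (165 and 78.8), the dotted line is the threshold of 30, and crosses at 0 stand for no promoter peak. In each replicate Rara and Rdh10 are the points to the right of that replicate's median.

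In each replicate 6 of the 8 genes with a promoter peak lay below the median of all such genes. The highest promoter q score per gene had a median of 165 in replicate 1 and 78.8 in replicate 2 over all genes with such a peak, and Rara and Rdh10 were above it in each replicate. When a promoter q score of over 60 was asked for in each replicate, 4 of the 10 genes were left (Rara, Rarb, Aldh1a2 and Rdh10), beside 35.2% of all genes.

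Among the receptors, Rara carried the most SOX3 peaks. RARA is the retinoic acid receptor known to act in Sertoli cells and germ cells, and its gene spans chr11:98937696-98974942 with 5 RefSeq start sites. All 5 starts were covered by a peak in each replicate. Over the 3 starts at the 5′ end the peak had a q score of 243 and a log2 ratio of 3.51 in replicate 1, and 145 and 2.97 in replicate 2. The start at 98960471, next to the DR5, was covered by a peak of q score 188 in replicate 1 and 88.2 in replicate 2.

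Peaks also ran through the body of Rara. Outside the promoters there were 6 peaks in the gene in replicate 1 and 8 in replicate 2. Its peaks were broad, at up to 10312 bp in replicate 1 and 5096 bp in replicate 2, where the median widths of the lists were 738 and 697 bp. Positions covered in both replicates made up 49.8% of the gene with 2 kb on each side, a share at the 98.8 percentile of all genes, whose median was 0.965%. The 50 kb on either side of the gene held 17 and 10 peaks, where the median gene had 3 and 2.

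Rarb, whose product is itself induced by retinoic acid in many cells, was bound at 1 of its 2 starts. The start at 16575476 had a peak of q score 69.8 and log2 ratio 3.70 in replicate 1, and 75.4 and 3.80 in replicate 2. Of the 7 genes with a promoter peak in both replicates, Rarb was the one whose highest q score was greater in replicate 2. The scores of the 2 lists are on separate scales, however. By rank among all genes with a promoter peak, Rara, Cyp26a1, Aldh1a2 and Rdh10 also stood higher in replicate 2, and Stra8 and Aldh1a1 lower. At the other start, at 17082331, the nearest peak was 89979 bp away in replicate 1 and 506209 bp away in replicate 2. The gene is 651493 bp long (chr14:16430839-17082331) and held 1 further peak in each replicate, of q score 31.4 and 40.8, at different places. No peak lay within 50 kb outside it.

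For synthesis, Rdh10 had the highest promoter q scores, at 186 in replicate 1 and 89.6 in replicate 2, where the log2 ratio was 4.26 and 2.27. RDH10 oxidises retinol in the first step. The peak (chr1:16103574-16106485 and chr1:16103753-16106237) also covered the start of Rpl7, a ribosomal protein gene, 1449 bp away, so it cannot be assigned to either gene alone. The body of Rdh10 held no further peak in either replicate.

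Aldh1a2, which encodes the main retinal dehydrogenase of the embryo, had a peak over its start at chr9:71215789 of q score 114 in replicate 1 and 69.6 in replicate 2. The start of Gm3458, 403 bp away, lay under the same peak. In the gene body 3 peaks were found in replicate 1 and none in replicate 2.

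Aldh1a1, the retinal dehydrogenase known for its level in Sertoli cells, had a peak over the start at chr19:20601968, of q score 97.3 in replicate 1 and 41.0 in replicate 2. Its other start, at 20492583, had none, and the nearest peaks were 108914 and 26686 bp away. No other peak lay in the 150881 bp of the gene.

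Aldh1a3, the third ALDH1A gene, differed between the replicates. In replicate 2 a peak of q score 47.5 and log2 ratio 3.04 lay over the start (chr7:66427318-66428310), while in replicate 1 the nearest peak was 7008 bp away. Inside the gene a peak was found in both, at chr7:66405032-66407760 (q score 56.1) and chr7:66405031-66407124 (q score 58.5), and GENCODE has a start site under it at 66406002, of a transcript with a retained intron.

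By RefSeq starts, no promoter peak of the breakdown genes had a q score above 49.8. A peak inside Cyp26b1, described below, reached 166 in replicate 1. CYP26A1 and CYP26C1 are encoded side by side on chromosome 19, with 12128 bp between their starts, so their peaks are shared: 5 peaks of replicate 1 and 3 of replicate 2 count for both genes. Cyp26a1 had a peak over its start in both replicates, of q score 49.8 in replicate 1 and 36.7 in replicate 2. A second promoter peak in replicate 2, 976 bp downstream, had a q score of 47.5. Cyp26c1 had a promoter peak in replicate 1 alone, 1504 bp downstream of the start, with a q score of 34.1. In replicate 2 the nearest peak to that start was 11200 bp away, at the Cyp26a1 promoter.

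By RefSeq starts, Cyp26b1 was the one gene of the 10 with no promoter peak in either replicate. The study, in contrast, names Cyp26b1 among genes occupied by SOX3 in both uSPG and neural progenitor cells. It filtered peaks of merged replicates and added some genes by hand, so the 2 calls were not made alike. The reason for the difference was not tested. CYP26B1 is the enzyme that degrades retinoic acid in the fetal testis and keeps germ cells there from entering meiosis. The nearest peak to its starts at 84593810 and 84593908 was 3160 bp away in replicate 1 and 2431 bp away in replicate 2, downstream in each case. These were broad peaks inside the gene. In replicate 1 the peak was chr6:84580509-84590650, 10142 bp wide, with a q score of 166 and a log2 ratio of 3.38. In replicate 2 the same stretch held chr6:84583011-84585961 (q score 59.0, log2 ratio 3.25) and chr6:84588245-84591379 (q score 55.5, log2 ratio 2.67). The first of these lay wholly inside the replicate 1 peak, and 76.7% of the second did.

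In all, Cyp26b1 held 5 peaks in its body in replicate 1 and 4 in replicate 2. Positions covered in both made up 22.7% of the gene with 2 kb on each side, at the 92.9 percentile of all genes. With GENCODE transcripts, which add starts inside the gene at 84587680, 84588005 and 84588638, the same peaks counted as promoter peaks in both replicates. By those transcripts 9 of the 10 genes had a promoter peak in both, Cyp26b1 and Aldh1a3 included, beside 30.4% of the 55413 GENCODE genes. That set was taken with no filter on gene type, and its share is lower than the 52.2% of RefSeq genes. The 9 of 10 beside it is therefore not a result about the retinoic acid genes. Aldh1a3 counted in both through its internal start at 66406002 alone. Upstream of Cyp26b1 there was no peak within 50 kb in either list.

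**Figure D2:**
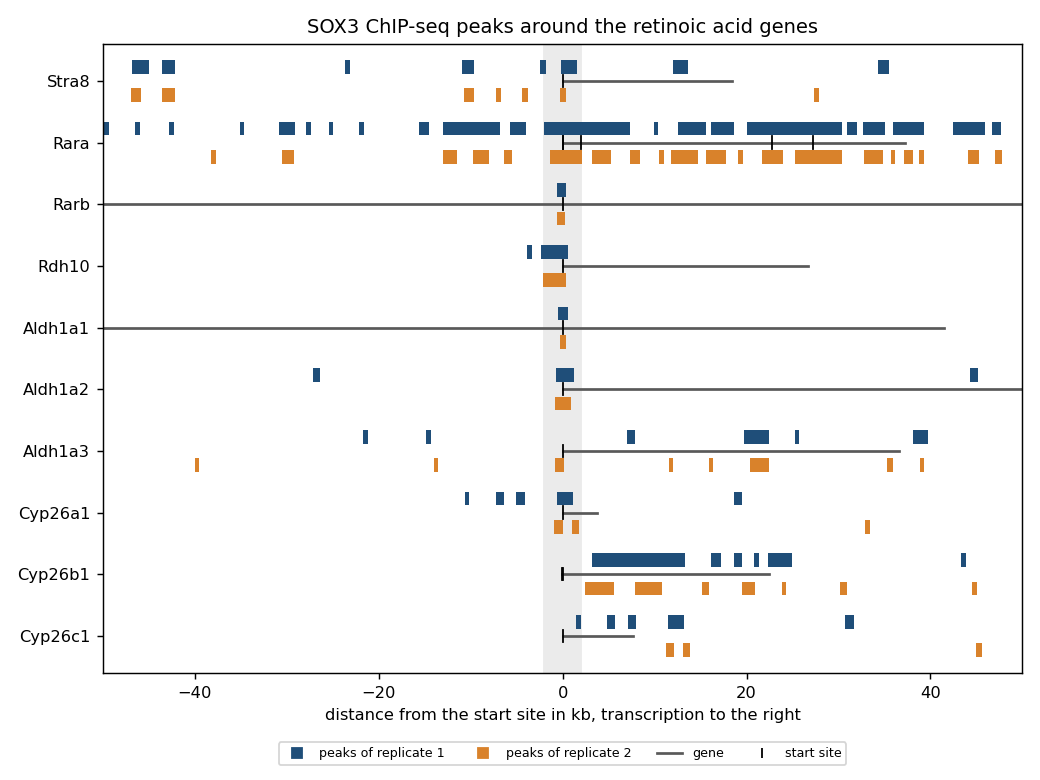
SOX3 peaks within 50 kb of a start site of each gene, with replicate 1 above and replicate 2 below the line of the gene, transcription to the right and the 2 kb on each side of the start in grey. Distances are in kb from the start nearest to a peak of replicate 1, and vertical ticks are RefSeq starts. Rara is covered over much of its length in both replicates, and the peaks of Cyp26b1 lie to the right of the grey band.

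Stra8 (chr6:34920948-34939344) had a peak over its start in both replicates, and both were weak. The q score was 44.8 in replicate 1 (chr6:34920739-34922507) and 32.8 in replicate 2 (chr6:34920655-34921280), and the log2 ratio 3.22 and 2.23. They shared 542 bp. A second promoter peak of replicate 1, of q score 48.3, lay 1840 bp upstream and overlapped no peak of replicate 2. The strongest peaks near Stra8 were at other genes. Those at the Cyren promoter had q scores of 204 and 101, and those at the Wdr91 promoter 141 and 49.6, 42100 and 9595 bp upstream of Stra8 in replicate 1.

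Among peaks of the body class, 7 of the 10 genes had one in replicate 1 and 4 in replicate 2, beside 35.7% and 27.9% of all genes. Rara, Rarb, Cyp26b1 and Aldh1a3 had them in both. A peak within 50 kb outside the gene was found at 8 genes in each replicate, beside 76.5% and 72.5%. Of these flanking peaks 11 of 42 in replicate 1 and 9 of 31 in replicate 2 were at a promoter of another gene. Near Rara they were at Cdc6, Gjd3 and Top2a, with q scores of 100, 165 and 120 in replicate 1 and 56.8, 93.7 and 31.7 in replicate 2. At Aldh1a3 they included the Lrrk1 promoter, at 51.0 and 31.2, and near Cyp26c1 the Cyp26a1 promoter described above. A flanking peak of Rdh10 in replicate 1, of q score 31.4, lay within 2 kb of the Rpl7 start. On the 5′ side of Aldh1a3 the nearest flanking peak was 14334 bp from the start in replicate 1 and 13536 bp in replicate 2.

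Each peak was set against the other replicate, and counted as found there when 1 peak covered at least 50% of its length. Over all classes these genes had 69 peaks in replicate 1, of which 13 (18.8%) were found in replicate 2, beside 25.1% of the whole list. In replicate 2 they had 58, of which 31 (53.4%) were found in replicate 1, beside 48.4%. Rara alone held 25 of the 69 and 22 of the 58, so these shares rest in large part on 1 gene and do not describe the 10 genes evenly. For promoter peaks 4 of 10 (40.0%) and 10 of 12 (83.3%) were found, where the lists as a whole had 59% and 85.4%. By any overlap, 8 of the 10 promoter peaks of replicate 1 met a peak of replicate 2, and the broad one over the 5′ starts of Rara met 3, which together covered 59.7% of it. The replicate 1 list is the longer (58351 against 38832 peaks), although the study lists fewer unique reads for that library, and the effect of list length on these shares was not tested.

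The CpG content of a start site moved with its SOX3 peaks over the whole genome. The CpG ratio is the number of CpG dinucleotides over that expected from the C and G content, here in 500 bp on each side. Below a ratio of 0.25, 10.0% of all starts had a peak within 2 kb in both replicates, and at 0.75 or above 93.5% did. From 0.25 to 0.5 and from 0.5 to 0.75 the shares were 28.3% and 76.8%. In these 4 ranges the starts of the retinoic acid genes with a peak in both numbered 3 of 7, 1 of 2, 4 of 5 and 3 of 3. The 3 in the lowest range were the Rara starts at 98939711 and 98964872 and the Aldh1a1 start at 20601968. The 4 from 0.5 to 0.75 were Rara starts and that of Cyp26a1. In replicate 1 each CpG-poor Rara start shared a broad peak with a Rara start of higher ratio, so these counts are not of separate genes.

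The starts of the retinoic acid genes spanned the whole range. Aldh1a2 and Rdh10 had the highest ratios, both 0.93, and the unbound start of Rarb the lowest, at 0.0815, beside 0.776 at its bound start. Both starts of Cyp26b1 were CpG-poor, at 0.247 and 0.221. Aldh1a1 was bound at a CpG-poor start, with a ratio of 0.173, while its unbound start had 0.193. Stra8 had 0.464, at the 47.0 percentile of all starts. The Aldh1a3 start, bound in 1 replicate, had 0.682.

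**Figure D3:**
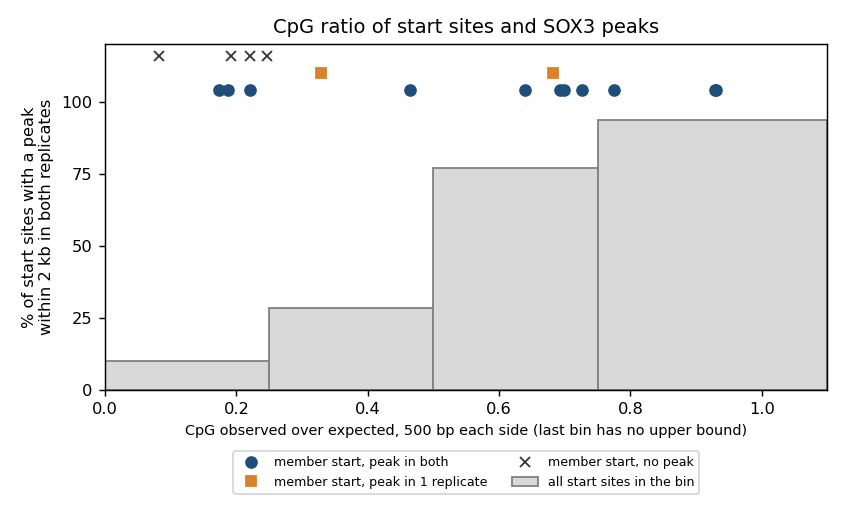
Share of all start sites with a peak within 2 kb in both replicates (grey bars, %) by CpG ratio, with the 17 starts of the retinoic acid genes drawn above the bars at their own ratio. Circles had a peak in both replicates, squares in 1 and crosses in neither. The bars rise from 10.0% to 93.5%, and the 3 circles in the lowest range are starts of Rara and Aldh1a1.

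AACAAT, letters of the kind SOX proteins bind, lay on either strand within 500 bp of 5 of the 17 starts (29.4%) and of 28.3% of all starts. Within 1000 bp it lay at 35.3% of these starts and 54.3% of all. The other SOX letters searched, ACAAAG, lay within 500 bp of 29.4% of these starts and 48.3% of all. In the 1001 bp around the midpoint of a peak, AACAAT lay in 11 of 69 peaks in replicate 1 and 16 of 58 in replicate 2 (15.9% and 27.6%), where the whole lists had 28.4% and 27.1%. ACAAAG lay in 38 of the 69 and 29 of the 58 peaks, and in 54.2% and 52.3% of the whole lists. A match, or its absence, says nothing on whether SOX3 touches the DNA there.

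The 41 other genes of the pathway, listed by role, were described in the same way. In both replicates 30 of them (73.2%) had a promoter peak, 3 had one in replicate 1 alone, and 8 had none. All genes had 52.2% in both, as above. The list was drawn up with earlier results known, and the CpG ratios of these genes were not compared. Shares by role are therefore not a result about the pathway. All 7 germ cell genes of the response had a promoter peak in both. Among them Dazl, an RNA-binding protein germ cells need to respond to retinoic acid, had the highest replicate 1 q score (194 and 95.6). The 7 genes had median q scores of 74.8 and 50.3, below the 165 and 78.8 over all genes with such a peak. All 7 receptor cofactors also had one in both, led by the corepressor Ncor1 at 598 and 258. Of the nuclear receptors 4 of 5 did, led by the partner receptor Rxrb at 746 and 298, and the exception, named after its value was seen, was Rxrg.

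Uptake, binding and storage genes had a peak in both at 6 of 7, led by the lipid carrier Fabp5 at 109 and 31.5, and the other was Lrat, which esterifies retinol for storage, with a q score of 31.4 in replicate 1 alone. Of the 15 oxidoreductases 6 (40.0%) had a peak in both replicates, beside 52.2% of all genes. The highest q scores among them were those of Rdh14, at 499 and 183. Adh4 and Rdh5 had one in replicate 1 alone, of q score 43.3 and 291, and 7 had none.

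**Figure D4:**
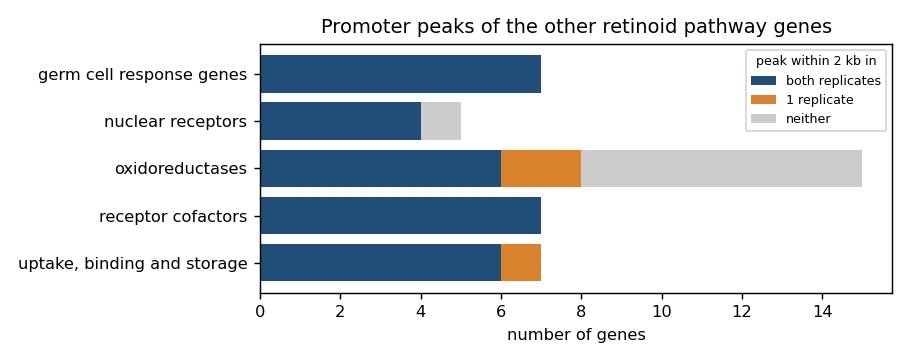
Number of the 41 other retinoid pathway genes with a SOX3 peak within 2 kb of a start in both replicates (blue), in 1 (orange) or in neither (grey), by role. The 7 germ cell response genes and the 7 receptor cofactors are all blue, and 7 of the 15 oxidoreductases are grey.

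In the ChIP-nexus lists no peak lay in any of the 10 genes or within 50 kb of them. Those lists hold 110 and 18 peaks on mouse chromosomes, so this absence is one of very short lists, and its bearing on the ChIP-seq peaks was not tested.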

How the data were processed

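The members and gene lists were chosen with earlier results of these data known. According to the study's methods, reads were aligned to mm10 with Novoalign, with reads of several placements set at random, duplicates were removed with Picard, and peaks were called with USeq and MACS. The methods go on to filter peaks of merged replicates, while the lists used here are 1 per replicate sample. No header comes with the deposited ChIP-seq lists, so it was inferred from their layout, and from values that start just above 30, that they are USeq output: a score (scaled negative log10 of the adjusted p-value, above 30) and a log2 ratio, both made by the authors. The deposited ChIP-nexus lists are MACS output (MACS2 2.1.1, per the labels) with the authors' −log10 q. No list holds read counts. The study gives read numbers per library, with fewer unique reads for replicate 1 of the ChIP-seq than for replicate 2, and they were not used in any value here.

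Peaks were assigned to the 10 genes with RefSeq curated transcripts: promoter (2 kb on each side of a start), else body, else flank (50 kb). All members were named. Of the other pathway genes, the one with the highest replicate 1 q score per role and those bound in exactly 1 replicate were named, and of flanking peaks, those at another gene's promoter and the nearest on each side of a gene without a promoter peak. Promoter sequences were from RefSeq (8 of the 10 genes matched in the promoter table) and from the genome. Scripts used Python 3.11.15, pandas 2.3.3 and pysam 0.24.0. Overlaps were checked against bedtools 2.31.1. The overlap search was also run on simulated peaks planted inside the promoter window of 200 genes (100% recovered). That checks the search itself and not the split into promoter, body and flank. Labels and methods call the 2 ChIP-seq samples replicates. No test between groups was possible. Alternatives covered the windows, q score, annotation, midpoint rule, overlap rule, sequence windows, motifs and each replicate left out.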

Additional observations from a re-analysis of the deposited data

How the results depend on the processing

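No paired analysis was possible because the lists come from 1 group and no result rests on a test. Of 46 alternative values, 33 kept to the main value by the limit set for their kind and 13 did not. Counts had a 1.5-fold limit, and the CpG difference had to keep its sign. Shares of peaks found in the other replicate had a binomial 95% interval, which takes peaks as independent although many lay at Rara. The percentile of promoter peaks had the standard deviation of the 2 replicates as limit. Leaving out a replicate cannot exceed that limit, so those values kept to it by construction. A q score above 60 left 4 members and 19 of the 41 other pathway genes with a promoter peak in both replicates, in place of 7 and 30, and on average 3.50 body and 6 flanking peaks, in place of 19 and 36.5. It raised the share of member peaks found in the other replicate to 31.6% (6 of 19) and 100% (13 of 13). Flanks of 20 and 100 kb held 16 and 58 peaks. An overlap of 1 bp raised the replicate 1 share to 43.5%, and asking for 50% of both peaks lowered the replicate 2 share to 22.4%. Summing all overlapping peaks, an alternative chosen after seeing the data, gave 26.1% and 53.4%. The median CpG ratio of the members' starts less that of all starts was -0.05 within 500 bp and 0.10 within 1000 bp. AACAAT lay within 250 bp of 3 starts in place of 5, and DR2 within 500 bp of 0 where DR5 had 3; DR2 lay within 500 bp of 0.496% of all starts. With either replicate left out, 8 members and 30 to 33 other genes had a promoter peak, body peaks numbered 17 to 21, flanking peaks 31 to 42, and the median percentile of promoter peaks by q score was 38.9 to 53.4. By gene, Stra8, Cyp26a1, Cyp26c1, Aldh1a1 and Aldh1a3 lost a promoter peak in at least 1 replicate above a q score of 60, Cyp26c1 lost its own within 1 kb, and Cyp26b1 had one in both within 5 kb. With 2 replicates and no read counts in the lists, what a missing peak shows is limited.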

Other observations

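Many peaks share an identical pair of q score and log2 ratio with another peak of their list: 98.7% in replicate 1 and 98.6% in replicate 2, with 2388 and 1719 different pairs. The Aldh1a3 promoter peak of replicate 2 and the peak 976 bp downstream of the Cyp26a1 start carry the same pair (47.5 and 3.04), which 172 peaks of that list hold. The replicate 1 peaks over the Stra8 start and in the Stra8 body share a pair (44.8 and 3.22) with 778 peaks in all. Equal scores leave such peaks without an order among them.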
